A study of Rattus norvegicus with 9 samples.

Results

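The islet autoantigen genes are a group of 6 listed genes, Ptprn, Ptprn2, Gad1, Gad2, Slc30a8 and Ica1, whose protein products are recognised by autoantibodies in type 1 diabetes. They were chosen by name. A gene was measured here if the platform annotation gave at least 1 probe set its symbol alone, which held for 5 of the 6 genes and 6 probe sets, out of 14217 genes named in that way. Slc30a8, which encodes the zinc transporter of insulin granules, was not analysed here. All 5 measured genes passed the filter on dim probe sets described under the processing, and Gad1 was the only one with a second probe set.

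RNA came from pancreatic islets, the endocrine cell clusters of the pancreas, of adult male Wistar rats that entered the study at 7 weeks of age and were caged singly. For 30 days they ate either standard chow, with 8% of calories as fat, or a cafeteria diet, with 66% of calories as fat. The arrays analysed were 4 of standard-fed and 5 of cafeteria-fed rats, described as independent samples; the design text counts 5 standard samples, and 1 of them was not analysed here. Islets were purified on a gradient and picked by hand, so each sample is a mixture of cell types, and fewer cells of a type cannot be told apart from less RNA per cell. Each sample's group was read from its title. A separate label for diet names the other diet in 9 of 9 samples, and following it would turn the sign of every difference given below.

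Autoantibodies against these proteins are used to recognise type 1 diabetes before and at its onset. Ptprn and Ptprn2 encode IA-2 and its paralogue phogrin, transmembrane proteins of dense-core secretory granules that belong to the receptor tyrosine phosphatase family but lack ordinary phosphatase activity. Gad1 and Gad2 encode the GAD67 and GAD65 forms of glutamate decarboxylase, which makes the transmitter GABA from glutamate, and beta cells make GABA as some neurons do. Ica1 encodes ICA69, a BAR-domain protein of the Golgi and immature granules.

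In the RefSeq annotation of the rat assembly GRCr8, Ptprn lies at chr9:84189676-84205364, Ptprn2 at chr6:143582568-144334573, Gad1 at chr3:75777260-75818099, Gad2 at chr17:89671718-89734246 and Ica1 at chr4:37622759-37771055. The main Gad1 probe set, the one with the higher mean, and Ica1 followed each other across arrays. The Gad2 signal tended the other way, with an r of -0.38 and -0.552 to them. The second Gad1 probe set had the reverse pattern, with an r of -0.433 to Ica1 and 0.795 to Gad2. The stretches just before Gad1, Ica1 and Gad2 are shown, a choice made after those values were seen. Each runs 5′ to 3′ on the strand of its gene and ends at the last base before the annotated gene, and capitals mark matches to the motifs listed after it.
Gad1, chr3:75777202-75777259, plus strand: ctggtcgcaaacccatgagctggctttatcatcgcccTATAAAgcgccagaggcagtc
Ica1, chr4:37771056-37771155, minus strand: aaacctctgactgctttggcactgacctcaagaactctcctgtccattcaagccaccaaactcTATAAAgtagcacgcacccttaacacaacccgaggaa
Gad2, chr17:89671468-89671717, plus strand: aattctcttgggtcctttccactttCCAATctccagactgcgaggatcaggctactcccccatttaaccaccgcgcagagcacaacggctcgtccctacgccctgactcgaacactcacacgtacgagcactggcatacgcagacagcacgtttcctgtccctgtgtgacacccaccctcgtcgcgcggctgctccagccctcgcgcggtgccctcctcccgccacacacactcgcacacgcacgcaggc

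The TATA motif TATAAA began 21 bases before the annotated gene in Gad1 and 37 bases before it in Ica1. Counted from the start used for the promoter window, which differs, the same matches began 213 bases before in Gad1 and 187 in Ica1. The motif was searched on both strands in the 250 bases before the start used for each of 33469 promoter windows. Of these windows 12.9% held it at any position, and those of Ptprn, Ptprn2 and Gad2 did not. TGACG, the half-site of the cAMP response element, was in the windows of Ptprn and Ica1, with 2 matches each, and in 18.2% of all windows. GGGCGG, the GC box, was in those of Ptprn2, Gad1 and Ica1 and in 30.5% of all, and CCAAT was in that of Gad2 and in 34% of all. The full element TGACGTCA, which overlaps the half-site, CAGATG and TAATTA had no match in the windows of these 5 genes; their shares over all windows were 1.59%, 14% and 4.86%. The start used for each window can lie inside the annotated gene, so some matches fall outside the stretches printed. The Ptprn window, chr9:84204824-84205073, lies wholly inside the annotated gene, so its matches are not before the gene. The motifs were picked with the sequences in view, and the matches describe letters and not bound sites.

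The samples carried the genes of islet tissue at high signal. Beta cell markers were present, with 7 of 9 named on the array and 7 tested, and the hormone genes Ins1, Ins2, Iapp, Gcg, Sst and Ppy all lay at or above the 99.9th percentile of mean signal. Markers of acinar cells, from the exocrine pancreas, were present too. Their summed signal was 3152 to 8734 in standard and 2558 to 9367 in cafeteria samples (exact permutation p = 0.429). Of the markers of Schwann cells, which surround islets and can carry neural genes, 5 of 7 were named on the array and 0 of 5 passed the filter, with summed signals of 115 to 263 in standard and 164 to 328 in cafeteria samples. The summed signal of 9 macrophage markers was 6948 to 12166 in standard and 3828 to 6547 in cafeteria samples (exact permutation p = 0.0159, two-sided), with no overlap between the groups. Cd74 and Lyz2, with mean signals of 3165 and 2092, made up most of this sum, and 6 of the 9 markers passed the filter. The summed signal of 8 lymphocyte markers, of which 4 passed the filter, was 808 to 3961 against 602 to 850 (exact permutation p = 0.0238), with the highest value on standard replicate 3. These were the 2 of 12 marker lists with an exact p under 0.05, not adjusted over the lists. The beta-actin 3′/5′ ratio, which rises when RNA is shortened or copied incompletely, was 4.84 on standard replicate 1, 5.63 on cafeteria replicate 3 and 4.59 on cafeteria replicate 5, and 2.79 to 3.82 on the other arrays. Its log2 mean was 1.89 in standard and 1.96 in cafeteria samples (exact permutation p = 0.786).

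No autoantigen gene passed the test for diet. Of the 5 genes, 0 had an adjusted p under 0.05 in limma's fit over all 18625 tested probe sets, where the share called was 0%; at an unadjusted p under 0.05 the fit held 1080 probe sets. All 5 log2 differences of cafeteria minus standard were positive, with a median of 0.15, against a median of -0.0019 and 49.6% positive over the 10347 named genes tested. Those genes span all signals above the filter, while Ptprn, Ptprn2, Gad1 and Ica1 lay at the 97.4th to 99.5th percentile of mean signal. Without standard replicate 1 the difference was -0.0074 for Ptprn and -0.194 for Gad2. Under quantile normalisation Ptprn had 0.0065 and Ptprn2 0.014, and under median scaling 0.115 and 0.091, so the size of these small differences moved with the scaling. The 5 genes are read from the same 9 arrays and are not replicates of each other. At an unadjusted p under 0.05 with cafeteria higher, 1 of 5 genes stood by its main probe set, against 3.01% of all tested probe sets. The second Gad1 probe set did not stand (unadjusted p = 0.492 by limma). In 0 of 5 genes did every cafeteria sample exceed every standard sample, against 0.999% of all tested.

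**Figure D1:**
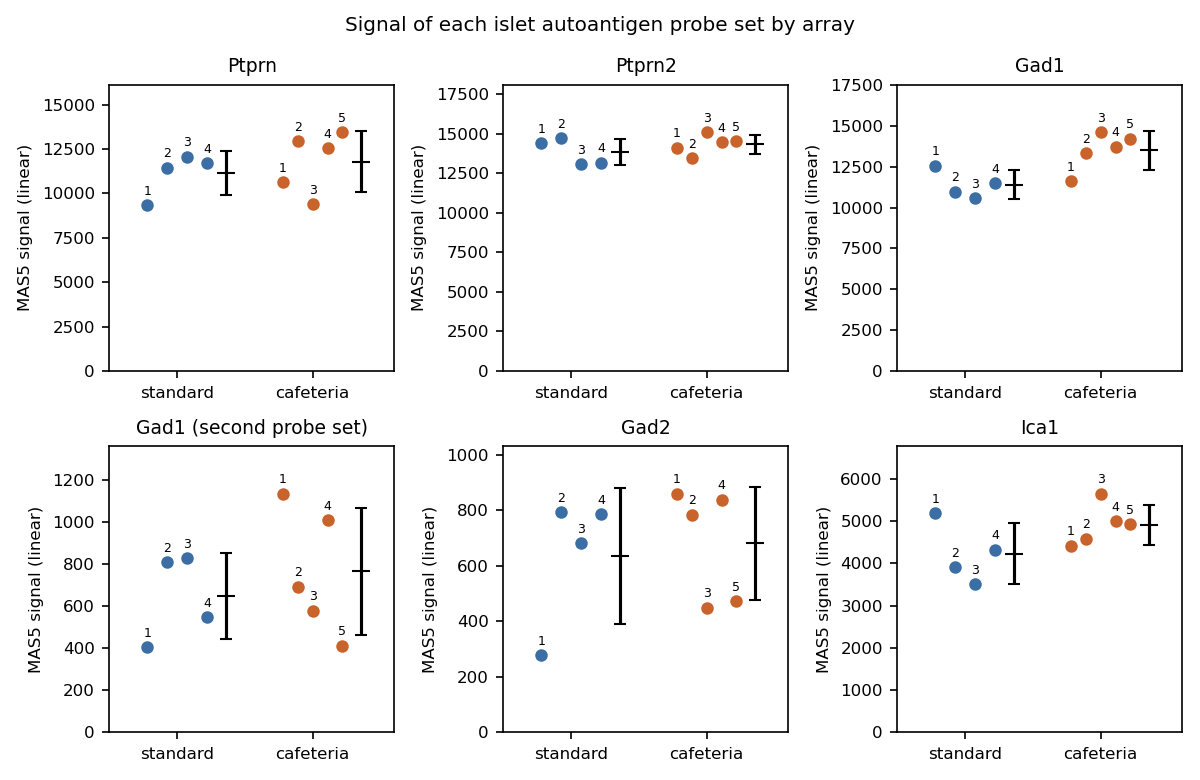
MAS5 signal on a linear axis from 0 for each of the 6 probe sets; each point is 1 array, numbered by replicate, and the bar is the mean ± SD of 4 standard or 5 cafeteria samples. In Gad1 4 of 5 cafeteria points lie above all standard points, and in Gad2 standard replicate 1 is the lowest point at 277.

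Gad1, the gene of GAD67, had the smallest unadjusted p of the group. Its main probe set, the one with the highest mean, gave signals of 12572, 10971, 10564 and 11497 on standard replicates 1 to 4. On cafeteria replicates 1 to 5 the signals were 11601, 13317, 14612, 13735 and 14215. All 5 cafeteria samples were above the standard median and 4 were above every standard sample; cafeteria replicate 1 lay inside the standard range and standard replicate 1 was the highest of its group. The means were 11400 ± 869 (SD, n = 4) and 13500 ± 1166 (SD, n = 5), a log2 difference of 0.24 ± 0.095 (SE) with a 95% interval of 0.036 to 0.45. That is a 1.18-fold level, with an interval of 1.03 to 1.36. The unadjusted p by limma was 0.0249 and the adjusted p 0.839, and the exact permutation p for this gene alone was 0.0317 (two-sided, not adjusted over the genes). The difference was positive in 21 of 21 other settings, between 0.21 and 0.30. The unadjusted p by limma was under 0.05 in 14 of them, and the lowest adjusted p was 0.401. These settings were not independent. Those that changed only the filter, the variance trend or the probe sets tested left the difference at 0.242 by construction. The replicate block gave the same 0.222 as leaving out cafeteria replicate 5. The macrophage and lymphocyte markers had the reverse direction, with an r to the log2 Gad1 signal of -0.489 and -0.643 over the 9 arrays. Group means were not removed for these r values. Sums of other marker lists had an r of similar size, among them 0.589 for beta cells, 0.53 for Schwann cells and -0.501 for neurons. None of the Schwann cell markers passed the filter. Of the 7 neuron markers named on the array 4 passed, and Uchl1 and Elavl4, with mean signals of 3776 and 2320, made up most of the sum. The part of any of these markers in the Gad1 difference was not tested. Without standard replicate 3, which had the highest macrophage and lymphocyte sums, the Gad1 difference was 0.206.

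The second probe set of Gad1 did not show the same picture. Its signals were 406, 809, 830 and 549 on standard replicates 1 to 4. They were 1136, 694, 579, 1011 and 412 on cafeteria replicates 1 to 5. The groups overlapped widely, with 2 of 5 cafeteria samples above all standard samples and the lowest cafeteria value close to the lowest standard one. The log2 difference was 0.20 ± 0.28 (SE; 95% interval -0.41 to 0.82; limma adjusted p = 0.929), and without standard replicate 1 it was 0.0019. Across the 9 arrays the 2 Gad1 probe sets had a Pearson r of -0.376 (Spearman's rho -0.3) on the log2 scale, and -0.815 once each group's mean was removed. Of the named genes tested 73.1% had an r with the main probe set of -0.376 or higher. Where in the transcript each probe set lies was not analysed here, so which of them follows the Gad1 level more closely is not known.

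Gad2, the gene of GAD65, varied more between arrays of a group than between diets. The standard signals were 277, 793, 681 and 786. The cafeteria signals were 859, 784, 449, 838 and 472. Most arrays lay between 681 and 859, and the 3 low arrays were standard replicate 1 and cafeteria replicates 3 and 5. The means were 634.0 ± 244 (SD, n = 4) and 680.4 ± 203 (SD, n = 5). The log2 difference was 0.15 ± 0.30 (SE), with a 95% interval of -0.50 to 0.80 (limma adjusted p = 0.954, exact permutation p = 0.746), so changes of up to about 1.74-fold up or 0.71-fold down lie inside the interval. Without standard replicate 1 the difference was -0.194. The within-group SD of Gad2 was 0.573 on the log2 scale, higher than that of 97.4% of the 1000 tested probe sets nearest to it in signal; the median over all tested was 0.257.

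The 3 arrays with the lowest Gad2 signal were the 3 with the highest beta-actin 3′/5′ ratio. Over the 9 arrays the Pearson r between the log2 Gad2 signal and the log2 ratio was -0.814 (Spearman's rho -0.833), and -0.839 without cafeteria replicates 1 and 3, the arrays farthest from the median ratio. Of all tested probe sets 5.26% had a correlation with the ratio of that size or more in either direction. The second Gad1 probe set had an r of -0.694 with the ratio, and -0.69 without those 2 arrays. The main Gad1 probe set had 0.605, which was 0.393 without them. Ica1 had 0.616 and 0.485, Ptprn2 0.616 and 0.59, and Ptprn -0.412 and -0.34. The share of all tested probe sets with a correlation at least as large was 16.2% for the second and 25.8% for the main Gad1 probe set, 24.6% for Ica1, 24.5% for Ptprn2 and 48.9% for Ptprn. This relation was noticed in the same data. The correlations describe 9 arrays, whose values share RNA quality and scaling, and the part of RNA quality in the signals was not tested further. With the ratio as a covariate in limma, the diet difference was 0.25 ± 0.18 (SE) for Gad2, 0.28 ± 0.21 for the second Gad1 probe set and 0.22 ± 0.079 for the main one, with adjusted p-values of 0.798, 0.798 and 0.638.

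**Figure D2:**
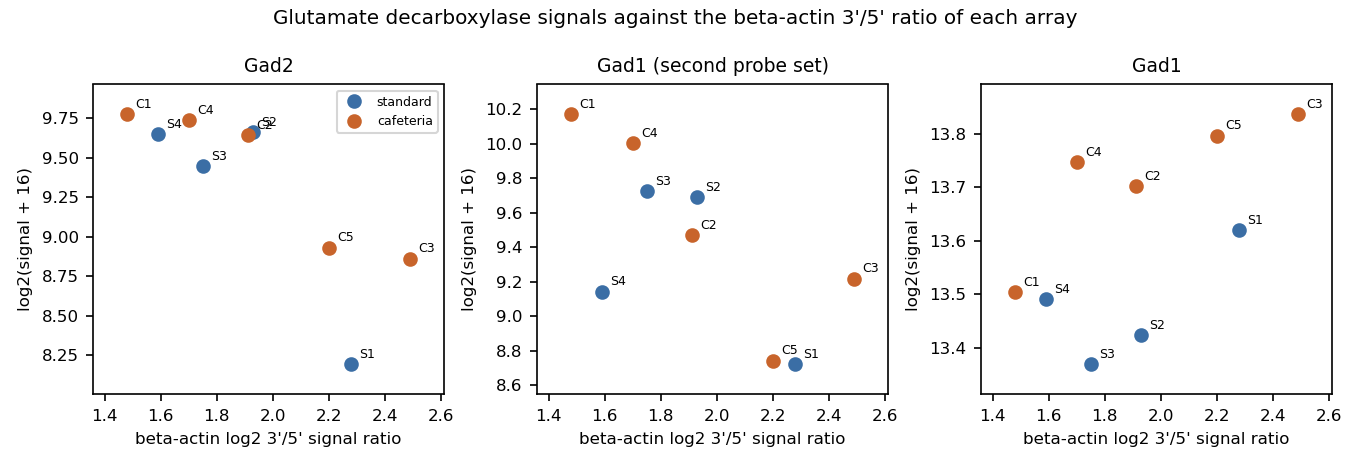
Log2(signal + 16) of Gad2, of the second Gad1 probe set and of the main Gad1 probe set (vertical axes) against the log2 beta-actin 3′/5′ signal ratio of the same array (horizontal axis); S and C mark standard and cafeteria replicates. The 3 arrays with the highest ratio, S1, C5 and C3, are the 3 lowest in Gad2, and the r is -0.814 for Gad2, -0.694 for the second and 0.605 for the main Gad1 probe set.

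Ica1, the gene of the granule protein ICA69, had the second smallest unadjusted p. Its signals were 5195, 3906, 3509 and 4320 on standard replicates 1 to 4. They were 4419, 4586, 5649, 4997 and 4930 on cafeteria replicates 1 to 5. Every cafeteria sample exceeded 3 of the 4 standard samples, and standard replicate 1 exceeded 4 of the 5 cafeteria samples. The means were 4233 ± 722 (SD, n = 4) and 4916 ± 474 (SD, n = 5), a log2 difference of 0.23 ± 0.12 (SE) with a 95% interval of -0.036 to 0.49. It did not pass (unadjusted p = 0.0851 and adjusted p = 0.849 by limma; exact permutation p = 0.135). Leaving out 1 array at a time gave 0.14, without standard replicate 3, to 0.33, without standard replicate 1. The r of the log2 Ica1 signal over the 9 arrays was -0.538 with the macrophage and -0.709 with the lymphocyte sum. It was 0.55 with the beta cell, 0.525 with the Schwann cell and -0.504 with the neuron sum. The Schwann cell markers did not pass the filter, and the neuron sum came mostly from Uchl1 and Elavl4. The part of these markers in the Ica1 values was not tested.

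Ptprn, the gene of IA-2, had standard signals of 9349, 11454, 12064 and 11698. Its cafeteria signals were 10618, 12935, 9378, 12530 and 13443. Cafeteria replicates 2, 4 and 5 were above every standard sample, and standard replicate 1 and cafeteria replicate 3 were nearly equal at the low end. The means were 11140 ± 1221 (SD, n = 4) and 11780 ± 1716 (SD, n = 5). The log2 difference was 0.07 ± 0.12 (SE, 95% interval -0.19 to 0.34, limma adjusted p = 0.944, exact permutation p = 0.579), and it was -0.0074 without standard replicate 1. Over the 9 arrays the log2 Ptprn signal had an r of -0.672 with the acinar sum, and the part of acinar cells in it was not tested.

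Ptprn2, the gene of phogrin, was the steadiest of the group. Standard signals were 14410, 14731, 13063 and 13184. Cafeteria signals were 14131, 13458, 15099, 14453 and 14527. The highest was 1.16 times the lowest, and 4 of 5 cafeteria samples lay inside the standard range. The means were 13850 ± 847 (SD, n = 4) and 14330 ± 601.0 (SD, n = 5), a log2 difference of 0.05 ± 0.083 (SE) with a 95% interval of -0.13 to 0.23 (limma adjusted p = 0.944; exact permutation p = 0.294). Its fold interval, 0.915 to 1.17, was the narrowest of the 6 probe sets. The within-group SD was 0.0738 on the log2 scale, and 2.8% of the 1000 tested probe sets nearest in signal had a lower one. The within-array log2 difference of Ptprn minus Ptprn2 was -0.318 ± 0.229 (SD, n = 4) in standard and -0.294 ± 0.257 (SD, n = 5) in cafeteria samples (exact permutation p = 0.889), so a shift of these paralogues relative to each other was not detected.

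**Figure D3:**
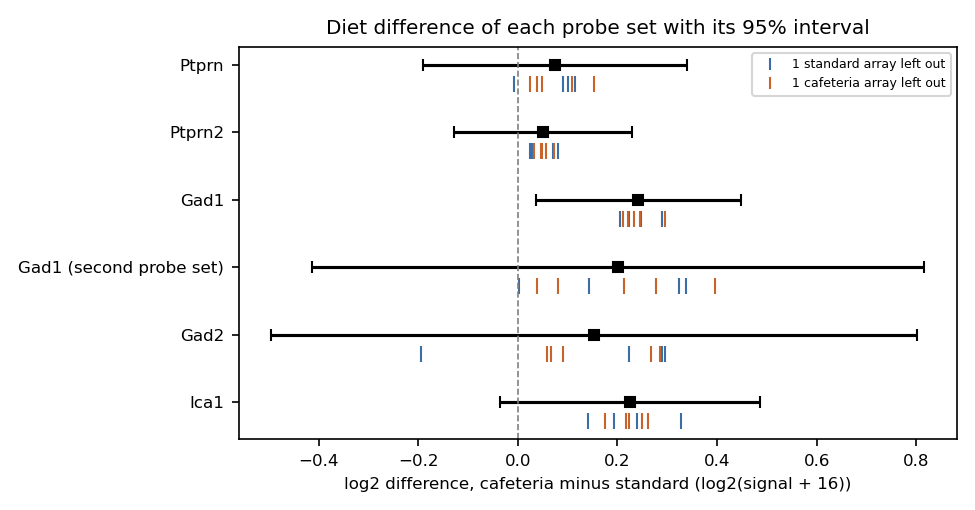
Log2 difference of cafeteria minus standard for each probe set (black square, horizontal axis) with its 95% interval from limma; ticks under each show the difference with 1 standard (blue) or 1 cafeteria (orange) array left out. The interval of the main Gad1 probe set, 0.036 to 0.45, is the only one of the 6 that does not span 0, and Gad2 without standard replicate 1 lies at -0.194.

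Gad1, by its main probe set, and Ica1 were high and low on the same arrays. Over the 9 arrays the Pearson r of their log2 signals was 0.892 (Spearman's rho 0.883), and 0.861 with group means removed. It was 0.794 without standard replicate 3 and cafeteria replicate 3, the arrays farthest from the Gad1 median. Among the 10346 other named genes tested, 114, or 1.1%, had an r with Gad1 as high as this. The second pair to follow each other was Gad2 and the second Gad1 probe set, with an r of 0.795 (rho 0.8; 0.78 without standard replicate 1 and cafeteria replicate 3), a value that 2.41% of the named genes reached with Gad2. Of the 15 pairs, these had the highest r. Gad2 had an r of -0.38 with Gad1 and -0.552 with Ica1, and of -0.748 and -0.775 with group means removed. Of the named genes 73.3% had an r with the main Gad1 probe set of -0.38 or higher. The second Gad1 probe set had an r of -0.433 with Ica1, and of -0.676 with group means removed. The paralogues Ptprn and Ptprn2 had an r of -0.413 (rho -0.217), and 0.021 without standard replicate 1 and cafeteria replicate 3. Of the named genes 84.4% had an r with Ptprn of -0.413 or higher. The pairs described were picked after all 15 correlations were seen. All pairs share arrays, scaling and RNA quality, and the correlations are descriptions without a test.

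**Figure D4:**
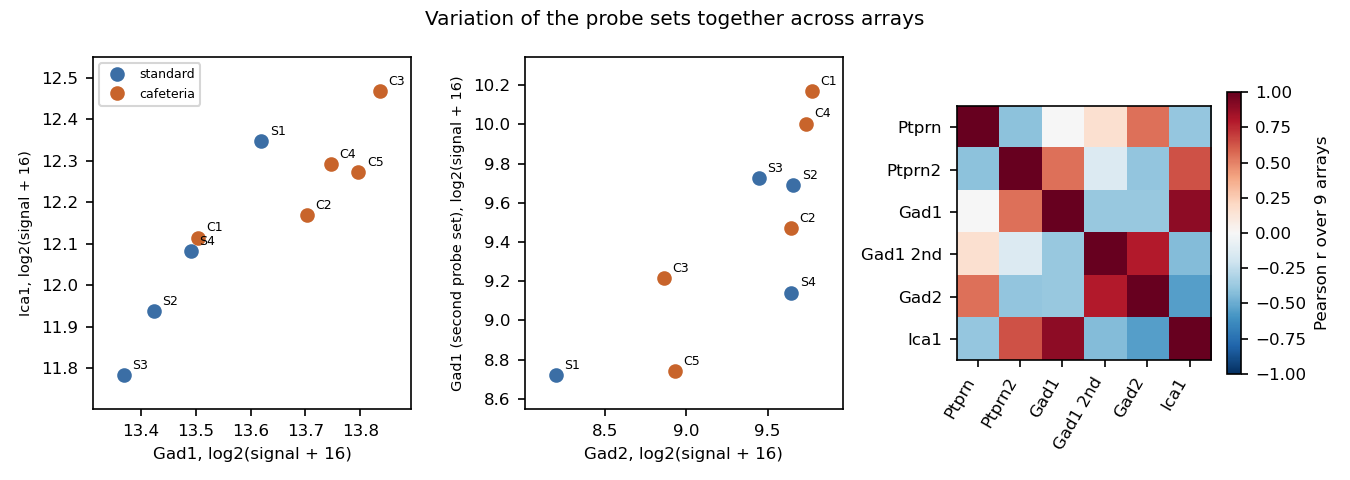
Left, Ica1 against Gad1 and, middle, the second Gad1 probe set against Gad2, all as log2(signal + 16), with 1 point per array (S standard, C cafeteria, numbered by replicate); right, Pearson r over 9 arrays for each pair of the 6 probe sets, red for positive and blue for negative. The r is 0.892 in the left and 0.795 in the middle panel, and Gad1 with its own second probe set has -0.376.

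For each gene, the 3 named genes with the highest Pearson r over the 9 arrays were taken from the 10346 others tested, so high values follow from the choice. Nearest to Gad2 was Hid1, a factor needed to form dense-core granules, with an r of 0.969 and the same order of all 9 arrays (rho 1). Hid1 signals were 2140, 3704, 3404 and 3610 in standard and 3801, 3593, 2802, 3759 and 3243 in cafeteria samples, low on the same 3 arrays as Gad2. Pianp (0.961) and Ppp1r10, a regulatory subunit of protein phosphatase 1 (0.957), came next. The r of Hid1, Pianp and Ppp1r10 with the beta-actin ratio was -0.746, -0.742 and -0.743.

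Nearest to Gad1 were Arl10, a small GTPase of the Arf-like family (0.984), Gnptg, a subunit of the enzyme that tags lysosomal proteins (0.983), and Eif3d, a translation initiation factor (0.980). Nearest to Ica1 were Zkscan1 (0.983), Rrs1, a ribosome assembly factor (0.967), and Elof1, a transcription elongation factor (0.965). Ptprn was nearest to the tubulin gene Tubb5 (0.932), Mcrip2 (0.923) and Ankrd55 (0.903). Ptprn2 was nearest to Epas1, a hypoxia-inducible factor (0.930), the lysosomal protease gene Ctsl (0.927) and Trip4 (0.924). Correlations with the beta-actin ratio were not limited to the genes near Gad2. The r with the ratio was 0.679, 0.562 and 0.638 for Arl10, Gnptg and Eif3d, 0.72, 0.609 and 0.746 for Zkscan1, Rrs1 and Elof1, and 0.575, 0.709 and 0.669 for Epas1, Ctsl and Trip4. It was -0.227, -0.276 and -0.362 for Tubb5, Mcrip2 and Ankrd55.

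Other proteins reported as autoimmune targets in type 1 diabetes gave a list of 11 genes, of which 10 were named on the array and 9 tested. None passed limma's test (0 of 9; lowest adjusted p = 0.870), with 6 positive and 3 negative log2 differences and a median of 0.11. The insulin gene Ins2 had a log2 difference of 0.16 ± 0.14 (SE) and the mitochondrial chaperone Hspd1 0.13 ± 0.11. The tetraspanin Tspan7 had -0.10 ± 0.090 and the transcription factor Sox13 -0.07 ± 0.17. Without standard replicate 3 Ins2 had 0.0368, Hspd1 0.0542 and the list a median of 0.0113.

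The secretory granule list held 25 genes of cargo, processing and exocytosis, 22 of them named and tested. None passed (0 of 22; lowest adjusted p = 0.839), and 12 were positive and 10 negative with a median of 0.05. Chgb, a granin that helps pack granules, had mean signals of 14130 ± 1934 (SD, n = 4) and 17520 ± 2017 (SD, n = 5), a log2 difference of 0.31 ± 0.11 (SE) with 3 of 5 cafeteria samples above every standard one. Rab3d, a small GTPase of secretory vesicles, had 0.20 ± 0.12, and 0.0322 without standard replicates 1 and 3 and cafeteria replicate 3. On the other side, Ptbp1, an RNA-binding protein that stabilises granule protein mRNAs including that of Ptprn, had -0.29 ± 0.19. Pcsk1n, which encodes the convertase inhibitor proSAAS, had -0.31 ± 0.25, and -0.0454 without cafeteria replicate 3. The granule biogenesis list, with the relatives of Ica1, had 11 of 12 genes tested, and Ica1l did not pass the filter. Of those tested 9 were positive and 2 negative, with a median of 0.11. None passed limma's test (0 of 11, lowest adjusted p = 0.839). Arl1, a Golgi GTPase, had 0.32 ± 0.11 and Eipr1 0.31 ± 0.15, while Vps52 had -0.23 ± 0.23, or -0.0472 without standard replicate 2, and Ccdc186 -0.17 ± 0.23.

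The GABA list covered the enzymes, transporters and receptors that work with the Gad genes. Of its 22 genes 16 were named and 10 tested, with 5 positive and 5 negative and a median of 0.00031. None passed (0 of 10; lowest adjusted p = 0.839). Gabbr2, a subunit of the GABA-B receptor, had mean signals of 1524 ± 296 (SD, n = 4) and 1216 ± 191 (SD, n = 5), a log2 difference of -0.31 ± 0.15 (SE). Glud1, which converts glutamate, the Gad substrate, to 2-oxoglutarate, had -0.09 ± 0.093. Aldh5a1, which oxidises the breakdown product of GABA, had 0.09 ± 0.15, and Dnajc5, a chaperone of synaptic vesicles, 0.05 ± 0.094. The vesicular transporter Slc32a1 was among the 6 genes that did not pass the filter.

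Slc30a8 itself has no value here. Other zinc genes were read, and how they relate to Slc30a8 was not tested. Of 28 zinc transporters, metallothioneins and their regulator, 25 were named and 17 tested, with 10 positive and 7 negative, a median of 0.03 and none passing (0 of 17; lowest adjusted p = 0.839). At an unadjusted p under 0.05 there were 4 of 17, all positive, against 3.01% of all tested probe sets with cafeteria higher; the genes of this list are read from the same arrays and none had an adjusted p under 0.05. Slc30a7, a transporter that moves zinc into the secretory pathway, had mean signals of 330.6 ± 61.0 (SD, n = 4) and 464.6 ± 72.0 (SD, n = 5), a log2 difference of 0.47 ± 0.16 (SE), with 4 of 5 cafeteria samples above every standard one. Mt3, a metallothionein, had 0.80 ± 0.30, with 1 of 5 cafeteria samples above every standard one. Slc30a3 had -0.28 ± 0.25, and -0.126 without cafeteria replicate 4. Slc39a3 had -0.19 ± 0.24, and -0.0157 without cafeteria replicate 5.

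**Figure D5:**
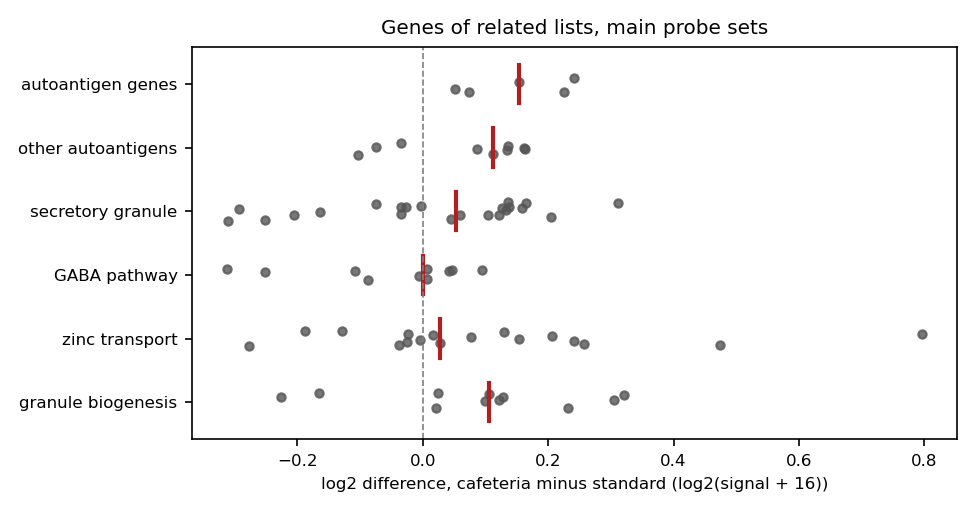
Log2 difference of cafeteria minus standard (horizontal axis) for each tested gene of the autoantigen group and of the 5 related lists, 1 point per gene, with the list's median as a red bar; vertical scatter within a row has no meaning. Medians lie between 0.00031 and 0.15, the right-most point is Mt3 at 0.80, and no gene passed limma's test.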

How the data were processed

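The authors deposited 1 linear intensity per probe set and array. MAS5 is the program named in the submitters' processing notes, without a version or settings. Every array had a mean of 500 after trimming 2% at either end, and the deposited signals were not rescaled. Without 57 controls there were 31042 probe sets. Of these, 20826 had 1 gene symbol in the supplied platform annotation, 436 several and 9780 none here; only the first were named, and a gene's main probe set is the one with the highest mean.

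The scale of the tests was log2(signal + 16). Probe sets at or above the 40th percentile of mean log2 signal (a signal of about 91.1) were kept, which left 18625. They were fitted on diet in limma 3.58.1 under R 4.3.3, letting the prior variance follow the mean level, and p-values were adjusted over all of them by Benjamini-Hochberg. Differences understate the change of dim genes. Standard errors and intervals are limma's. Exact permutation tests ran over all 126 ways to divide the arrays into 4 and 5; the smallest two-sided p they can give is 0.0079. Correlations used Python 3.11.15.

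The members, lists and alternatives were chosen with earlier results of these data known. Named genes are the 5 measured members, in each list the 2 genes with the smallest unadjusted p in each direction, and the 3 genes most like each member. Promoter sequences and gene positions are from RefSeq, GRCr8. Alternatives were other pseudocounts (1 and 64), normalisations, filters and variance models, array weights, 1 probe set per gene, the replicate number as a block, the beta-actin ratio as a covariate, each array left out, and standard replicates 1 and 3 and cafeteria replicate 3 left out together because they stood apart in earlier results. Arrays have no read depth; their number limits precision.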

Additional observations from a re-analysis of the deposited data

Results flagged for a closer look

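Standard replicate 1 stood apart from its group in Gad2. Its signal of 277 was below the other standard samples, at 681 to 793, and the gap to the nearest was 0.853 of the group's range on the log2 scale, above Dixon's 95% critical value for 4 samples. The 6 probe sets gave 12 groups to check, and chance flags about 1 in 20. That array also had the highest beta-actin 3′/5′ ratio of the standard samples, 4.84, and whether the ratio bears on the signal was not tested.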

How the results depend on the processing

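No autoantigen gene was called in any of the 21 alternatives. Over all tested probe sets 0 were called in limma's fit (1080 at an unadjusted p under 0.05), and 0 to 2 with 1 array left out, the 2 without standard replicate 2. Gad1, Ica1 and Ptprn2 kept a positive difference in 21 of 21. Settings that changed only the filter, the variance trend or the probe sets tested could not alter a difference. With 1 array left out, Ptprn ranged from -0.0074 to 0.153 and Gad2 from -0.194 to 0.295, each lowest without standard replicate 1. Without standard replicates 1 and 3 and cafeteria replicate 3 together, Gad2 had -0.131, Tspan7 0.00545 and Sox13 0.13, and the granule biogenesis median was -0.0256. Sox13 had 0.0411 with array weights. With 1 array left out, Sox13 ranged from -0.158 to 0.0546, Aldh5a1 from -0.0335 to 0.18 and Ccdc186 from -0.256 to 0.027. The cause of these turns was not tested. Other list genes moved by over 1.5 times without a change of sign: with 1 array left out Ins2 ranged from 0.0368 to 0.252, Hspd1 from 0.0542 to 0.234, Vps52 from -0.366 to -0.0472, Slc30a3 from -0.397 to -0.126, Slc39a3 from -0.379 to -0.0157, Ptbp1 from -0.444 to -0.184, Pcsk1n from -0.434 to -0.0454, Glud1 from -0.132 to -0.055 and Dnajc5 from 0.0175 to 0.0843. Ptprn2 ranged from 0.0234 to 0.0812. Without the same 3 arrays together, Rab3d had 0.0322, Arl1 0.211 and Mt3 1.25. The zinc median was 0.104 without standard replicate 4. With the replicate number as a block over 8 arrays, Gad1 had 0.222 (unadjusted p = 0.109 by limma) and 0 probe sets were called. Same-numbered arrays had deviations that correlated between -0.384 and 0.03. These values showed no pairing by number but are too few to exclude a weak one. Where the probes lie in each transcript was not analysed here.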
